A study of Marchantia polymorpha with 9 samples.

Results

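Transcripts of whole thalli of the liverwort Marchantia polymorpha labelled OX were compared with those of thalli labelled WT, over every gene that passed a low-count filter, 14813 of the 19287 gene IDs counted. The comparison used 6 of the 9 libraries, 3 of OX and 3 of WT. The 3 libraries labelled KO entered only the filter, the scaling and the shared estimate of the spread, and their levels are given beside a few genes without a test. All plants, in every group, were males of the Cambridge strain, grown from gemmae (small vegetative buds) at 22 °C with 16 h of light and 8 h of darkness and harvested at 10 days. The genotype labels are not spelled out, and they are read here as overexpression, wild type and knockout. The labels name no transgene, promoter or line. Per the labels' design text there were 3 biological replicates of a line, which leaves 1 line per genotype, so an effect of the genotype and an effect of the line cannot be told apart. The p-values cover the spread between samples of a line.

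The thallus is the flat, haploid plant body of a liverwort. Its upper epidermis covers air chambers, rhizoids grow from its lower side, and its outer surface carries a cuticle, a layer of the polyester cutin and of waxes that limits water loss. The series concerns a lineage of MYB transcription factors related to MIXTA, which shapes conical petal cells in snapdragon. Relatives of MIXTA in Arabidopsis regulate cuticle formation. The deposited table does not pair gene IDs with names, and 0 of its IDs matched the name table used here, so no gene below is given a name or function and the manipulated MYB gene was not identified. For the same reason the cell types of the thallus could not be checked by markers, and in whole thalli fewer cells of a type and less RNA per cell cannot be told apart. IDs of the form Mapoly0023s0165 hold a scaffold number before the s and a gene number on that scaffold after it.

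The OX libraries held 26625475 to 28848372 read pairs and the WT libraries 22401499 to 28683838. A level of 0 in a library allows up to 3 pairs, or 0.1 to 0.136 CPM (the unit of level used here, counts scaled between libraries with the TMM factors of edgeR). Such limits cover counting error only. The libraries were close within each genotype. The correlation of log2 CPM over all tested genes was 0.992 for each pair of OX libraries, 0.990 to 0.991 for pairs of WT libraries and 0.965 to 0.976 for pairs of an OX and a WT library. Among the genes of the highest quintile of abundance, the median SD over 3 libraries was 0.0496 in OX and 0.0611 in WT on the log2 scale. In the lowest quintile these medians were 0.346 and 0.367.

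Many transcripts differed between OX and WT, most of them by small amounts. In all, 3667 genes (24.8% of those tested) passed edgeR's quasi-likelihood test at an adjusted p of 0.05. Of these, 1554 (10.5%) were higher in OX and 2113 (14.3%) were lower. The median size of a called change was 0.495 on the log2 scale, and 2747 of the called genes (74.9%) differed by less than 2-fold. In 5958 genes (40.2%) all OX libraries lay on one side of all WT libraries, higher in 2947 (19.9%) and lower in 3011 (20.3%), and 2345 of these genes did not pass the test.

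The balance of direction turned with the size of the change. Changes below 1.25-fold were more often rises, with 748 genes higher and 542 lower. Between 1.25- and 1.5-fold, 343 genes were higher and 431 lower. From 1.5- to 2-fold the numbers were 235 and 448, and from 2- to 4-fold they were 169 and 424. Changes of at least 4-fold comprised 59 rises (0.398% of the genes tested) and 268 falls (1.81%). Those of at least 16-fold comprised 11 rises (0.0743%) and 106 falls (0.716%). In all, 228 genes rose at least 2-fold (1.54%) and 692 fell as much (4.67%), so that 75.2% of the changes of this size were falls. The split of the small changes depended on the scaling. Of all called genes, 42.4% were higher in OX with TMM factors and 57.2% with library size alone, where 2350 genes were called higher. A fit with replicate number as a block called 5158 genes, of which 2333 (45.2%) were higher.

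**Figure D1:**
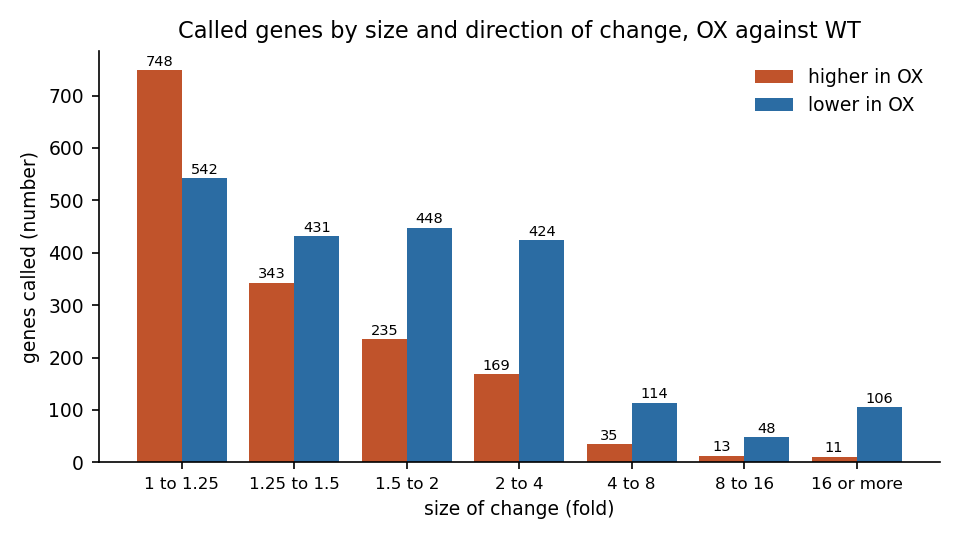
Number of called genes (adjusted p under 0.05, OX against WT, 3 libraries each) by size of the fold change, higher in OX in orange and lower in blue. Rises outnumbered falls only below 1.25-fold (748 against 542), and at 16-fold or more there were 11 rises and 106 falls.

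Few of these changes were large beyond their error. When edgeR's glmTreat tested each gene against a minimum change of 1.5-fold instead of no change, 789 genes passed, 176 higher and 613 lower in OX. Against a minimum of 2-fold, 374 genes passed, 62 higher and 312 lower. Falls thus made up most of the changes that exceeded a stated minimum.

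Called genes were found at every level of abundance, and large changes at the low end. Abundance here is CPM, not divided by transcript length, and stands for how many pairs were counted rather than for molecules. Of the 2962 genes in the lowest quintile, at up to 1.85 CPM, 18.7% were called, with a median change of 1.63 on the log2 scale. There, 116 genes rose and 340 fell at least 2-fold. In the next quintile, at 1.85 to 11.9 CPM, 31.0% were called, and 77 genes rose and 257 fell at least 2-fold. In the highest quintile, from 69.7 CPM, 25.2% were called, with a median change of 0.234, and 9 genes rose and 10 fell at least 2-fold. The standard error of a log2 fold change had a median of 0.370 in the lowest quintile and 0.0490 in the highest, and called changes were smaller in the latter.

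**Figure D2:**
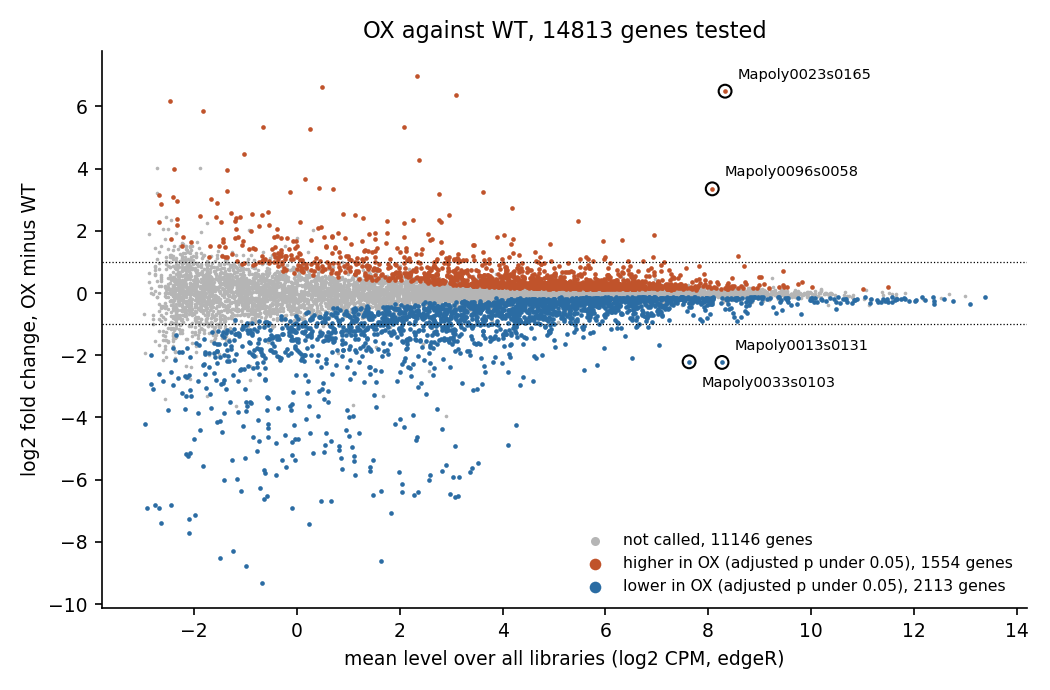
Log2 fold change (OX minus WT) against mean log2 CPM for the 14813 genes tested, with genes higher in OX in orange, genes lower in blue and genes that did not pass the test in grey. Dotted lines mark 2-fold changes and circles the 4 genes described with their levels. Of the 692 falls of at least 2-fold, 597 lie in the lowest 2 quintiles of mean level, which includes the OX libraries; the 2 circled falls are among the exceptions, at high levels.

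The most abundant transcripts were slightly lower in OX. Of the 106 genes with a mean of at least 1000 CPM, a limit chosen after the values were seen, 54 fell and 3 rose, against 14.3% lower and 10.5% higher among all genes tested. The whole highest quintile was more even, with 433 of 2963 genes lower and 314 higher. The log2 fold changes of the 106 genes ranged from -0.51 to 0.21 with a median of -0.155, against 0.0099 for all genes tested. With library size alone 45 fell and 6 rose, with a median of -0.104 against 0.0609. The 10 most abundant genes took 7.18%, 6.94% and 7.03% of the counts in WT and 6.53%, 6.26% and 6.41% in OX. The groups did not overlap, and the exact two-sided permutation test gave p = 0.10, the smallest that 3 against 3 libraries allow.

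Slightly fewer genes were detected in OX. At 1 CPM or more, scaled by library size, 12495, 12522 and 12572 genes were detected in the WT libraries and 12354, 12431 and 12398 in the OX libraries. The OX libraries were all below the WT libraries, with a mean difference of 135 genes (exact two-sided permutation test, p = 0.10, the smallest possible). Genes with any pair numbered 16708.3 ± 144 in WT and 16695.7 ± 146 in OX (SD, n = 3 each; exact permutation p = 0.70), groups that overlapped.

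Although large changes were many, they held little of the RNA counted. The 228 genes that rose at least 2-fold took 0.151%, 0.155% and 0.170% of the pairs in the WT libraries and 0.554%, 0.548% and 0.569% in the OX libraries. The 692 that fell as much took 0.685%, 0.705% and 0.644% in WT and 0.223%, 0.236% and 0.215% in OX. These shares describe genes chosen by their change, so their direction is no result of its own.

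Single transcripts with large gains and losses are given here by library. The 2 rises and 2 falls with the largest difference in CPM were taken from 330 genes, 83 higher and 247 lower in OX, that changed at least 2-fold, reached 5 CPM in the higher genotype and did not overlap between the genotypes.

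The largest rise by this measure was that of Mapoly0023s0165, with 11.5, 11.0 and 9.11 CPM in WT replicates 1 to 3 and 998, 906 and 929 CPM in OX. All 3 OX libraries were far above all WT libraries, by 6.49 ± 0.12 on the log2 scale (SE; edgeR adjusted p = 1.05e-09), or 89.7-fold. The KO libraries held 9.10, 8.62 and 6.98 CPM, just below the WT libraries. Among the changes of this size Mapoly0023s0165 stood out by its abundance. The 11 genes that rose at least 16-fold together had 1020, 1000 and 994 CPM in the OX libraries, and it made up most of that.

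Mapoly0096s0058 had 57.8, 64.3 and 82.0 CPM in the WT libraries and 709, 649 and 724 CPM in the OX libraries. It rose 10.2-fold, with a log2 fold change of 3.35 ± 0.15 (SE; edgeR adjusted p = 2.88e-07), and the WT libraries spread more than the OX libraries on the log2 scale (SD 0.259 and 0.0845, n = 3 each). In KO it had 45.6, 47.0 and 63.2 CPM, of which 1 library lay within the range of WT. Between them, Mapoly0023s0165 and Mapoly0096s0058 gained 934 and 626 CPM.

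Among the genes ranked here, which all changed at least 2-fold, the largest loss was that of Mapoly0013s0131. It had 595, 635 and 598 CPM in WT and 120, 146 and 124 CPM in OX. It fell to 21.3% of its WT level (log2 fold change -2.23 ± 0.073, SE; edgeR adjusted p = 6.13e-08). The KO libraries, at 198, 181 and 189 CPM, lay below all WT and above all OX libraries.

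Mapoly0033s0103 had 176, 160 and 176 CPM in WT and 35.5, 44.5 and 30.6 CPM in OX, a fall to 21.6% of the WT level (log2 fold change -2.21 ± 0.12, SE; edgeR adjusted p = 7.37e-07). Its KO libraries held 373, 416 and 367 CPM, above every WT library, so the genotypes stood in the order KO, WT, OX with no overlap. In Mapoly0013s0131 and Mapoly0033s0103 alike, replicate 2 was the highest of the OX libraries.

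**Figure D3:**
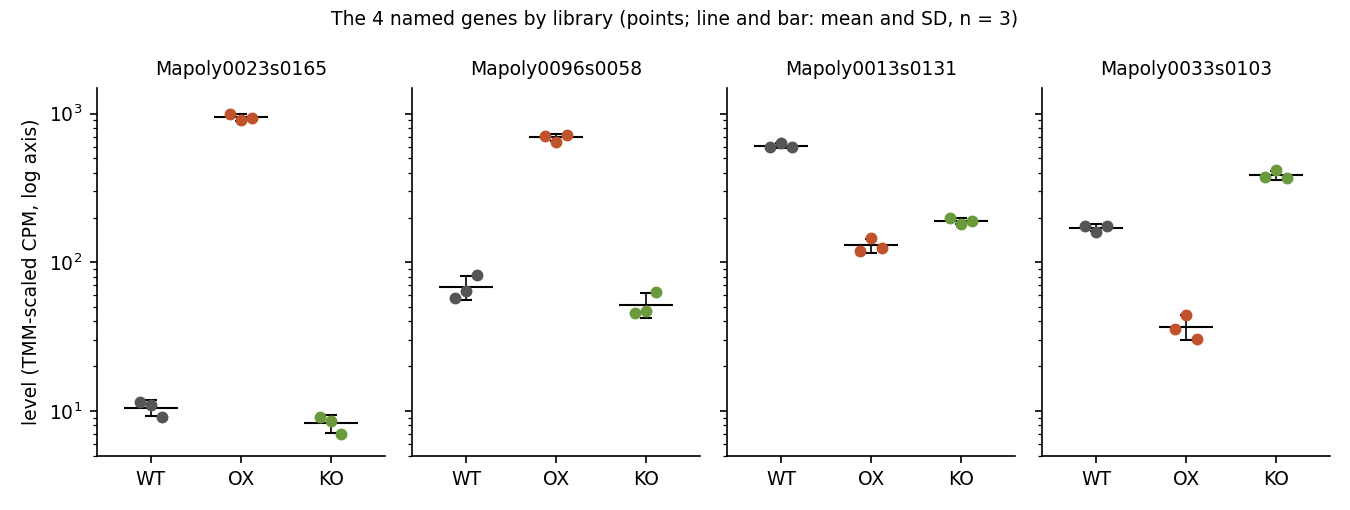
Levels of the 4 named genes in TMM-scaled CPM on a log axis. They are the 2 rises and 2 falls with the largest difference in CPM between OX and WT among the ranked genes, which all changed at least 2-fold. Points are libraries, and the line and bar give the mean and SD (n = 3). Mapoly0023s0165 and Mapoly0096s0058 were higher in all OX than in all WT libraries, and Mapoly0013s0131 and Mapoly0033s0103 lower. The KO libraries of Mapoly0033s0103 lay above both.

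Not every large rise was shared by the OX libraries. Of the 11 rises of at least 16-fold, 2 overlapped with WT and came from a single library. The gene on scaffold 11 had 0.184, 73.8 and 0.204 CPM in OX replicates 1 to 3, and 0.176, 0.770 and 0.0347 CPM in WT (edgeR adjusted p = 0.0439). Without OX replicate 2 its log2 fold change was -0.66 (adjusted p = 0.675). The gene on scaffold 199 had 0.147, 0.1 and 43.2 CPM in OX and 0.106, 0.0453 and 0.173 CPM in WT (adjusted p = 0.0374). Without OX replicate 3 its log2 fold change was 0.14 (adjusted p = 0.935). Both calls thus rested on 1 library, and these genes were chosen after their values were seen. The other 9 rises, and all 106 falls of this size, did not overlap between OX and WT. The same held for 98.5% of all called genes and 40.2% of the genes tested. Since these genes were chosen by their change, this adds no support of its own. Among called changes of at least 2-fold, 5 of 228 rises and 8 of 692 falls overlapped. The number of rises of at least 16-fold was 7 when only OX and WT libraries were fitted and 6 when at least 1 CPM was required in 3 libraries.

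The strongest falls took genes from low levels in WT to the limit of detection. For the 106 falls of at least 16-fold the median level was 1.93 CPM in WT, with quartiles of 0.985 and 5.83, and 0.0471 CPM in OX. In 28 of them the WT level reached 5 CPM. Among all genes tested, 15 had no pair in any OX library, and 12 of these were called. Those 12 had 20 to 113 pairs in the 3 WT libraries together (median 28), so that they were at least 7.27- to 41.1-fold higher in WT than the limit of 3 pairs over the 3 OX libraries. In the other direction, 5 genes had no pair in WT, of which 2 were called, with 11 and 14 pairs in OX, at least 3.36- and 4.28-fold above the limit. Such counts depend on the libraries used. Without OX replicate 2, 52 called genes had no pair in OX, against 23 without OX replicate 1 and 19 without OX replicate 3. The called genes with no pair in WT numbered 5 without WT replicate 1 and 8 without WT replicate 3, and 0 when only OX and WT libraries were fitted. With halved counts, which the filter treats as lower, the numbers were 4 and 1, and with at least 1 CPM required in 3 libraries both were 0.

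Within OX, replicate 2 kept more of these transcripts than the other libraries. Summed over the 106 genes, the WT libraries held 544, 540 and 468 CPM and OX replicates 1 to 3 held 9.05, 23.2 and 8.36 CPM, or 1.75%, 4.48% and 1.62% of the WT mean. The KO libraries held 329, 281 and 313 CPM, between the genotypes compared. In 72 of the 106 genes (67.9%) the highest OX level was that of replicate 2, against 14 in replicate 1, 8 in replicate 3 and 12 with no pair in any. Over all genes tested, replicate 2 was highest in 29.4%. The number of the 106 genes with no pair at all was 60 in replicate 1, 20 in replicate 2 and 53 in replicate 3.

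In smaller falls OX replicate 2 stood apart less in relative terms. Over the 162 genes that fell 4- to 16-fold, OX replicates 1 to 3 held 19.0%, 21.5% and 18.6% of the summed WT level. Over the 424 that fell 2- to 4-fold they held 41.0%, 41.6% and 39.0%. From the strongest to the weakest of these classes, replicate 2 held 2.66, 1.14 and 1.04 times the mean of the other OX libraries. In points of the WT level its excess was 2.8, 2.7 and 1.6. Over the 1421 genes that fell by less than 2-fold the ratio was 0.981, against 0.988 over all genes tested. Over the 228 genes that rose at least 2-fold, OX replicates 1 to 3 held 340%, 331% and 347% of the summed WT level, a ratio of 0.964. Over the 11 genes that rose at least 16-fold, replicate 2 was highest in 2, among them the gene on scaffold 11 called on that library alone. What sets replicate 2 apart was not tested. Without it, 102 of the 106 genes still fell at least 16-fold, among 126 genes that then did.

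**Figure D4:**
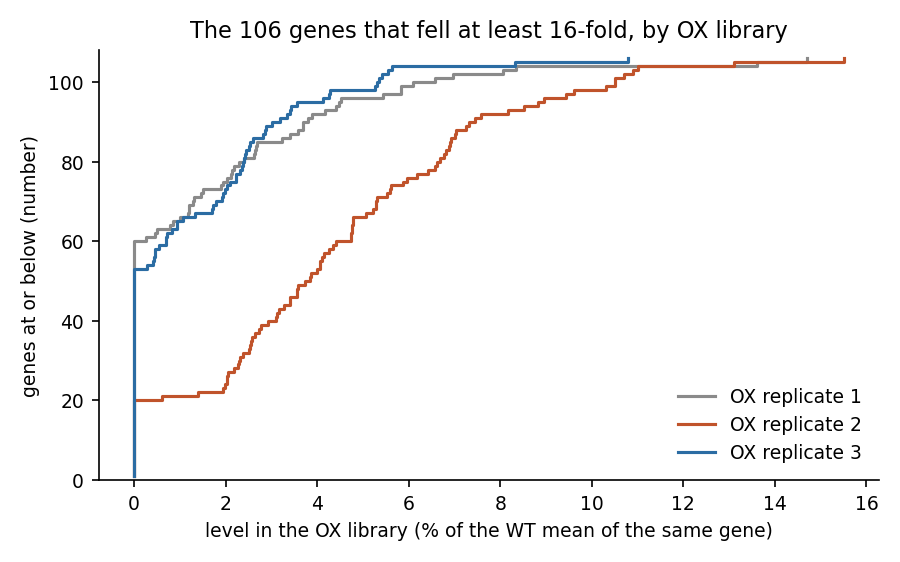
Cumulative number of the 106 genes that fell at least 16-fold, by their level in each OX library as a percentage of the WT mean of the same gene. At 0%, the curves start at 60 genes for replicate 1, 53 for replicate 3 and 20 for replicate 2, whose curve lies to the right of the others over most of its length.

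Genes that changed strongly lay next to each other more often than their overall share. Neighbours were taken as tested genes with the same scaffold number and consecutive gene numbers in their IDs, since the files give no coordinates. Genes that fell at least 2-fold had 920 such neighbours, of which 288 (31.3%) had fallen at least 2-fold as well, against 4.67% of all genes tested. A pair that fell together counts once from each side. Genes that rose at least 2-fold had 314 neighbours, of which 58 (18.5%) had risen as much, against 1.54%. The 58 include pairs on scaffolds 11 and 199 that hold the genes called on a single library. In the pair on scaffold 199 both genes rose in 1 OX library only, each in a different one, so they did not rise together. Neighbours moving in the opposite direction were near the overall shares, with 1.85% of the neighbours of falls risen and 5.41% of the neighbours of rises fallen.

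The likeness of neighbours faded over about 6 genes. At ID distances of 2, 3, 4 and 5, the shares of fallen neighbours around falls were 20.7%, 15.1%, 9.74% and 10.0%. They were 6.68% at a distance of 6 and 4.49% at 7, which is close to the overall 4.67%. Around rises, the share of risen neighbours was 6.92% at a distance of 2, and the decline was not steady. At distances of 3, 4, 5 and 6 the share was 4.18%, 3.12%, 5.03% and 5.86%, and at 7 it was 1.88%. Across all tested genes, whatever their call, log2 fold changes of neighbours correlated at 0.321 at a distance of 1 (11847 pairs), 0.187 at 2, 0.128 at 3 and -0.012 at 10. These are values across genes, which share libraries and are not independent replicates.

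**Figure D5:**
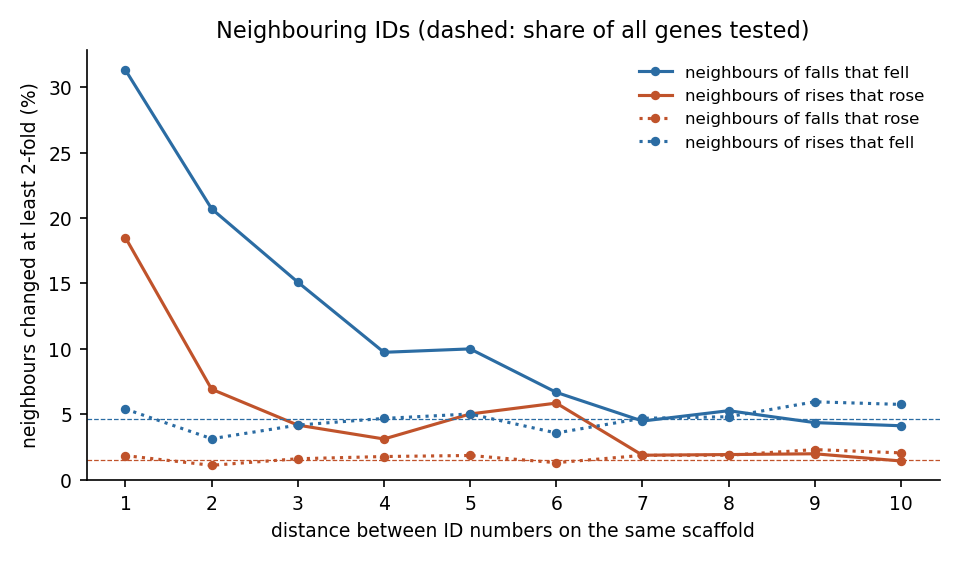
Percentage of neighbouring genes that changed at least 2-fold, by the difference between ID numbers on the same scaffold, around genes that fell or rose at least 2-fold. Dashed lines give the shares of all genes tested, 4.67% for falls and 1.54% for rises. Neighbours with the same direction start at 31.3% and 18.5% and approach the dashed lines by a distance of 7, while neighbours with the opposite direction (dotted) stay near them.

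The likeness of neighbours was seen among genes of low abundance, and on few neighbours also among genes of high abundance. Among the 5925 genes of the lowest 2 quintiles of abundance, 10.1% fell at least 2-fold, and of the neighbours of these falls within the same quintiles 45.9% had fallen too. Among the 8888 genes of the upper 3 quintiles, 1.07% fell, and 14 of 63 neighbours (22.2%) had fallen. For rises these shares were 34.5% of neighbours against 3.26% of genes in the lowest 2 quintiles. In the upper 3 they were 4 of 27 neighbours (14.8%) against 0.394%, where each pair again counts from both sides. The division by abundance was chosen after seeing the data. How reads of near-identical or overlapping genes were assigned is not stated, so counts of such neighbours are uncertain.

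Of the 692 genes that fell at least 2-fold, 237 (34.2%) stood in 93 unbroken runs of 2 or more consecutive IDs that all fell, and 32 runs held 3 or more. The longest was a run of 6 genes on scaffold 62, with log2 fold changes of -3.97 to -1.52. Its summed level was 102, 113 and 79.1 CPM in the WT libraries and 17.9, 18.1 and 15.9 CPM in the OX libraries, with no overlap. In KO the same 6 genes held 63.4, 52.1 and 57.5 CPM, below WT and above OX.

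A run of 5 on scaffold 196 had log2 fold changes of -8.63 to -1.45. It held 56.3, 56.2 and 49.4 CPM in WT and 7.80, 9.98 and 8.39 CPM in OX. On scaffold 185, a run of 3 genes went from 21.7, 22.2 and 17.2 CPM in WT to no pair in OX replicates 1 and 3 and 0.701 CPM in OX replicate 2. All the pairs of this run in OX thus came from replicate 2.

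Runs of rises were fewer, with 50 of the 228 genes (21.9%) in 21 runs, of which 4 held 3 or more genes. The longest was a run of 5 on scaffold 121, with log2 fold changes of 1.64 to 2.54. It held 3.95, 3.80 and 6.62 CPM in WT and 20.3, 18.7 and 20.4 CPM in OX, and 28.1, 38.4 and 32.2 CPM in KO. On scaffold 83, a run of 4 held 4.66, 4.07 and 3.64 CPM in WT, 21.5, 21.9 and 22.4 CPM in OX and 18.3, 14.9 and 20.4 CPM in KO. In both runs the OX and KO libraries lay above every WT library. The 21 runs include pairs on scaffolds 11 and 199 that hold the genes called on a single library. In OX replicates 1 to 3 these pairs held 1.40, 74.8 and 1.05 CPM, and 0.405, 7.84 and 43.5 CPM. The gene on scaffold 199 described above made up 0.147, 0.1 and 43.2 CPM of the latter, so its neighbour rose in replicate 2 alone. Of the 228 rises, 3 had over 90% of their OX pairs in 1 library.

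Large changes were more frequent on scaffolds with few tested genes. On the 314 scaffolds with fewer than 10, 81 of 537 genes (15.1%) fell and 20 (3.72%) rose at least 2-fold, against 4.28% and 1.46% of the 14276 genes on larger scaffolds. Such falls were also more frequent at low abundance, with 10.1% of genes in the lowest 2 quintiles and 1.07% in the upper 3. Abundance was not matched between small and larger scaffolds. Of the 197 scaffolds with at least 10 tested genes, 45 had no gene that fell at least 2-fold and 96 had none that rose as much, and the median share of falls per scaffold was 4.17%. The highest shares of falls were 4 of 11 genes on scaffold 212, 6 of 26 on scaffold 161 and 5 of 22 on scaffold 145. The highest shares of rises were 6 of 38 genes on scaffold 121, 5 of 41 on scaffold 120 and 4 of 40 on scaffold 112.

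Genes with Y-chromosome IDs, the only marker list that could be drawn from the IDs, differed little. Their summed level was 1660 to 1690 CPM in the WT libraries and 1720 to 1760 CPM in the OX libraries. Among the 34 that were tested, 4 were higher and 2 lower in OX (edgeR, adjusted p of 0.05), against 10.5% and 14.3% of all genes tested, and their median log2 fold change was 0.0885 against 0.0099 for all genes. With library size alone 9 rose and 0 fell. With the replicate number as a block 7 rose and 3 fell. The number called was 3 without WT replicate 1, 2 without OX replicate 2 and 3 without OX replicate 3.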

How the data were processed

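RNA sequencing counts of thalli were analysed from 1 table of raw counts per gene, deposited by the authors without normalization, with IDs of the version 3.1 gene models. Per the submitters' processing notes, the tools were STAR 2.5.1b and featureCounts 1.5; settings, strandedness and genome build: not given in the sources used here. All 173583 deposited counts were even, so read pairs were taken as counts divided by 2. The deposited values entered the test unhalved.

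The model was fitted in edgeR 4.0.16 under R 4.3.3. The steps were filterByExpr, TMM factors, 1 mean per genotype over all 9 libraries, and the quasi-likelihood F test of OX minus WT, with Benjamini-Hochberg adjustment over all genes tested. Every adjusted p comes from it, except where a fit without a library, with a minimum change or under another alternative is named. Standard errors were derived from the F statistics. Levels are TMM-scaled CPM. Library values were compared by exact permutation tests (scipy 1.17.1). Replicate pairs differed by 6.25 to 17.0 chi-square per degree of freedom, so none were duplicates. The scripts were tested on simulated data. Limits at 0 cover counting error only.

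The 2 rises and 2 falls named are those with the largest difference in CPM among called, non-overlapping genes changed at least 2-fold with 5 CPM or more in the higher genotype. The lists, the naming rule and the alternatives were chosen with earlier results of these data known. Gene lists by product name could not be applied, since 0 IDs matched the 18391 rows of the name table (assembly MpTak2_v7.1). Alternatives covered scaling, filter, tool (DESeq2 1.42.0, limma-voom 3.58.1), libraries, halved counts, a minimum change and a replicate block.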

Additional observations from a re-analysis of the deposited data

Results flagged for a closer look

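Mapoly0033s0103 was flagged because the KO libraries, which enter no comparison here, held more of it than every control library. Its mean was 385 ± 26.8 CPM in KO and 171 ± 9.52 CPM in WT (SD, n = 3 libraries each), while OX had 36.9 ± 7.06 CPM. The difference between KO and WT was not tested here.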

How the results depend on the processing

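Under all 21 alternatives the 4 named genes passed the threshold in the same direction. With a minimum change of 1.5-fold tested, 789 genes were called, 176 higher and 613 lower, with 143 rises of at least 2-fold and 0 Y-chromosome IDs. With a minimum of 2-fold, 374 were called, 62 higher and 312 lower, all of at least 2-fold, and again 0 Y-chromosome IDs. These tests ask for more than a change by construction. Genes higher in OX numbered 2350 with library size alone. Rises of at least 16-fold numbered 6 with at least 1 CPM in 3 libraries and 7 with only OX and WT libraries. Without a filter, 24.5% of the neighbours of 2-fold falls had fallen, with 18527 genes tested. Split by abundance, after seeing the data, the share was 45.9% in the lowest 2 quintiles and 22.2% in the upper 3, and for rises 34.5% in the lowest 2. The cause of these moves was not tested. With each library left out in turn, 2680 to 3667 genes were called, 1045 to 1661 higher and 1635 to 2108 lower. At 2-fold or more there were 192 to 245 higher and 618 to 708 lower, and at 16-fold 9 to 15 higher and 108 to 126 lower. Neighbour shares were 28.7% to 31.2% for falls and 13.8% to 17.2% for rises, all below the 31.3% and 18.5% of the main fit. From 2 to 8 Y-chromosome IDs were called, and the difference in detected genes was -154 to -114. Fewer libraries were then in the fit. The mean number of genes detected was lower in OX at 0.5, 1 and 5 CPM, without overlap between the groups at any of these limits. With any pair the groups overlapped (difference -12.7, exact permutation p = 0.70).

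By the labels, a shared replicate number is only a number. Over all tested genes, deviations of same-numbered WT and OX libraries from their genotype means correlated at 0.181, 0.076 and 0.2. Pairs of unlike number correlated at -0.159 to -0.022. Over genes at or above the median level, same-numbered pairs correlated at 0.739, 0.147 and 0.588, and unlike pairs at -0.637 to 0.158. There, WT replicate 3 was slightly closer to OX replicate 2 (0.158) than WT replicate 2 was. Deviations cancel within a genotype, so these pairs are not independent. A fit with this number as a replicate block called 5158 genes, 2333 of them higher in OX, 3652 calls were shared with the fit without it, and 10 Y-chromosome IDs were called.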
